A study of Mus musculus with 44 samples.

Results

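The genes of de novo lipogenesis were followed in liver and skeletal muscle of mice that carried or lacked Slc16a13, which encodes a plasma membrane transporter of monocarboxylates such as lactate. The set held 10 of the 38202 genes counted, listed by function as the enzymes of fatty acid synthesis and their regulators, and each symbol matched 1 Ensembl gene. RNA sequencing of polyadenylated transcripts covered both tissues of 11 wild-type (WT) and 11 Slc16a13 knockout (KO) mice, which gave 44 libraries. Both genotypes were littermate males on a C57BL/6N background that received a high-fat diet (HFD) for 15 weeks and were 20 weeks old at the end. The KO allele is a constitutive CRISPR/Cas9 deletion of the proximal promoter and the first exons in every tissue, and by the study's methods mice were fasted overnight before they were killed unless stated otherwise. Fewer cells of a type and less RNA per cell cannot be told apart in such bulk tissue.

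De novo lipogenesis makes fatty acids from carbohydrate. ATP citrate lyase cleaves exported citrate to cytosolic acetyl-CoA, acetyl-CoA carboxylase turns it into malonyl-CoA, and fatty acid synthase builds palmitate with NADPH, part of which comes from malic enzyme. The elongase ELOVL6 and the desaturase SCD1 then yield stearate, oleate and palmitoleate. In liver the pathway is driven by insulin through SREBP-1c, the product of Srebf1, and by glucose through ChREBP, the product of Mlxipl, and it is low during fasting.

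Fasn, Elovl6, Acaca and Acly were the members with an unadjusted p under 0.05 in liver both with all KO livers and without the 4 set aside below, and promoters of this group are shown for that reason. Of the 10 genes, 9 had a promoter entry in RefSeq (GRCm38.p6), with 13 windows in all, and Scd1 had none. The 250 bases before the annotated start are given 5′ to 3′ on the strand of the gene, with capitals for any match on either strand to the CCAAT box (CCAAT), the GC box (GGGCGG), the E-box (CACGTG) or the core of the sterol regulatory element (TCACNCCAC). Fasn lies on the minus strand (chr11:120824548-120824797) with its start 619 bases inside the longest transcript model, Elovl6 on the plus strand (chr3:129532136-129532385) and Acly on the minus strand (chr11:100528001-100528250). The Acaca window is not shown, since its start lies 65803 bases inside the gene in that annotation.
Fasn: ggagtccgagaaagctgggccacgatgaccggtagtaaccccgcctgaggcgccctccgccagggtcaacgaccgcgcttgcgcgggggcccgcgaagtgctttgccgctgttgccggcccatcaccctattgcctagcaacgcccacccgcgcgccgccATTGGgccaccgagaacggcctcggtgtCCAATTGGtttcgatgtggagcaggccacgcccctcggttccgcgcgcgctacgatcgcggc
Elovl6: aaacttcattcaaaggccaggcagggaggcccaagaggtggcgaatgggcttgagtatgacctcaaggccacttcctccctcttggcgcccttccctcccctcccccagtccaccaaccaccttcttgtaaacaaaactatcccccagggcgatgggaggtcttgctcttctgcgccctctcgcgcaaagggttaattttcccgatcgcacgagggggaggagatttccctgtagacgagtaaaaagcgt
Acly: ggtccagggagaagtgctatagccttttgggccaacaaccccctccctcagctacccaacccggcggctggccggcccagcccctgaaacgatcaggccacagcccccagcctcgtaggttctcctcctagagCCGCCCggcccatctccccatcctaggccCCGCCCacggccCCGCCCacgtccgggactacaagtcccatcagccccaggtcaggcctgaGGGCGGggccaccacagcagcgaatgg
The Fasn window held 3 CCAAT boxes, at -90 and -59 on the opposite strand and at -62 on the gene's strand, and those at -62 and -59 overlapped. The Acly window held 4 GC boxes, between -117 and -27, and that of Elovl6 held none of the letters searched. Among the other members, the Thrsp window had CCAAT boxes at -79 and -52, the Acacb window, which starts 19197 bases inside the gene, had 1 at -87. Of the 2 Me1 windows, 1 held GC boxes at -109, -48 and -42. The other, which starts 8637 bases inside the gene, held a CCAAT box at -208. Of the 3 Srebf1 windows, that 1605 bases inside the gene held a CCAAT box at -166. That at 3559 bases held GC boxes at -36 and -14, and that at 13715 bases a CCAAT box at -30 with GC boxes at -65 and -6. For Mlxipl, the window that starts 17001 bases inside the gene held the sterol regulatory element core at -136. The other, at the start of the gene, held an E-box at -98, a CCAAT box at -173 and GC boxes at -188 and -38. Searched over the same 250 bases before the start, CCAAT was present in 33.8% of all 32851 windows, GGGCGG in 32.7%, CACGTG in 6.02% and TCACNCCAC in 1.05%.

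Sequencing depth was similar throughout, with 20150712 to 35218243 counted reads per library. The labelled tissues were borne out by their markers, since the summed hepatocyte markers were at 80203 CPM (counts scaled to library size) or more in every liver and at 8.61 CPM or less in every muscle. Slc16a13 was at 3.72 to 9.09 CPM in WT livers and at 0 to 0.297 CPM in KO livers. In muscle it went against the label, at 0.181 to 0.869 CPM in WT and 0.449 to 1.08 CPM in KO, from 4 to 40 reads, so those samples are called muscle libraries labelled KO. A further split ran through the KO livers. Within each liver, log2 CPM relative to the mean of all livers was regressed on log2 length of the gene, and the slope was 0.0394 to 0.0955 in the WT livers, but below 0 in the KO livers of animals 532 (-0.535), 602 (-0.421), 583 (-0.249) and 611 (-0.0786). Those 4 libraries, which held fewer reads on long genes, are left out of a second value for each liver result. The next KO liver, of animal 587, had a slope of 0.0378. The 4 livers were selected on this slope, which is therefore given without a test, whereas the genes were chosen by function, with their fold changes in these livers already known.

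To see how much of each transcript the WT tissues held, levels were compared per gene length as RPKM, reads scaled to transcript length and library size by the authors. In WT liver Scd1 stood far above the other members, at 1101 ± 366 RPKM (SD, n = 11). Thrsp, whose product promotes lipogenic transcription and synthesis, and Mlxipl followed at 65.2 ± 34 and 62.9 ± 4.63 RPKM, without a difference beyond their spread. Me1 (32.7 ± 6.83 RPKM), Fasn (31.8 ± 6.06), Srebf1 (29.5 ± 6.69) and Acly (27.1 ± 2.17) were within one another's spread. Elovl6 and Acacb were lower and alike, at 6.13 ± 1.03 and 5.79 ± 1.76 RPKM, and Acaca was the lowest at 3.15 ± 0.583 RPKM. In WT muscle the order was different. Scd1 (85.2 ± 41.8 RPKM), Me1 (73.4 ± 6.71) and Acacb (68.7 ± 4.14) led without a difference beyond the spread of Scd1, and Elovl6 was nearly absent at 0.112 ± 0.0441 RPKM, from 8 to 32 reads per library.

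**Figure D1:**
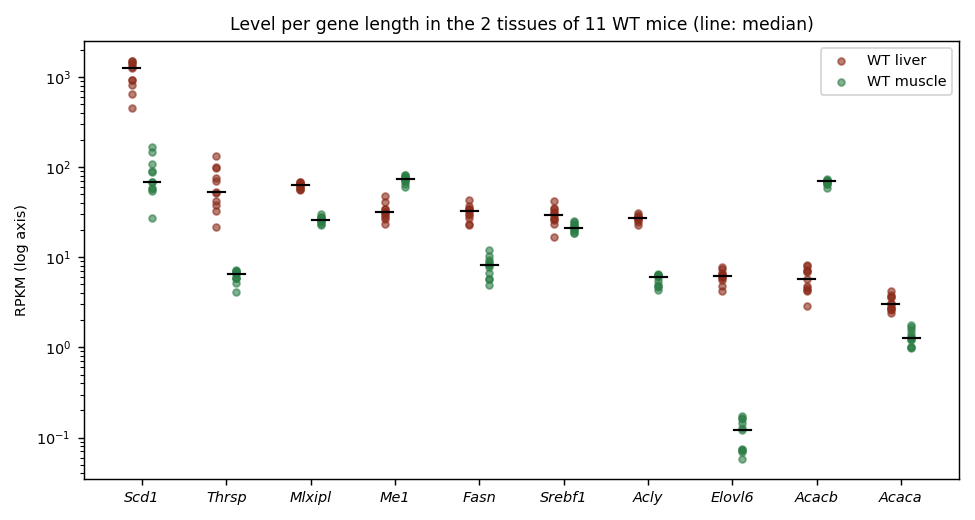
RPKM (log axis) of each lipogenic gene in the livers and muscles of the 11 WT mice, with a point per mouse and a line at the median, ordered by the mean in liver. Acacb and Me1 lay higher in muscle than in liver, Srebf1 was close in both, and the other 7 genes lay higher in liver.

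All 10 genes differed between liver and muscle of WT mice at an adjusted p under 0.05 in edgeR's quasi-likelihood test, against 91.0% of all 13907 genes tested. Of the 10, 8 were higher in liver and 2 in muscle, where 45.5% of all genes were higher in each. Elovl6 differed most, by 5.77 ± 0.14 on the log2 scale (SE), with means of 36.7 CPM in liver and 0.658 CPM in muscle. Scd1 was higher in liver by 3.72 ± 0.26, Thrsp by 3.41 ± 0.24, Acly by 2.71 ± 0.06 and Fasn by 1.95 ± 0.13 (log2). Acaca and Mlxipl differed less, by 1.44 ± 0.07 and 1.32 ± 0.04 (log2). Srebf1 was higher in liver by only 0.35 ± 0.10 (log2, adjusted p = 0.0015 by edgeR), and with the dependence on gene length removed from each library, which moved the median of all genes to -0.18, it lay at -0.17 (adjusted p = 0.092).

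The 2 genes higher in muscle were Acacb (liver minus muscle -3.58 ± 0.13, log2) and Me1 (-1.14 ± 0.09). Acacb encodes the carboxylase of the outer mitochondrial membrane, whose malonyl-CoA inhibits the entry of fatty acids into mitochondria, whereas Acaca encodes the cytosolic enzyme of lipogenesis. In WT livers the ratio of Acacb to Acaca ran from 0.955 to 2.57, with a median of 1.89 (RPKM over RPKM). In WT muscles it ran from 39.7 to 71.0, with a median of 55.4, so the tissues did not overlap. The ratio in KO livers had a median of 1.76 and that in muscle libraries labelled KO of 50.5, each inside the WT range of its tissue.

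Genes that surround these steps were taken from a list of 40, of which 38 could be tested between tissues. There 27 were higher in liver and 10 in muscle, and Usf1, an E-box binding factor, did not pass (log2 difference 0.04, adjusted p = 0.39 by edgeR). Among the 9 suppliers of substrate, 8 were higher in liver. Pklr, the liver form of pyruvate kinase, had no read in any of 11 WT muscle libraries, which allows up to 3 reads in each and puts liver at least 2082-fold higher. Elongases and desaturases were higher in liver in 7 of 9 cases, led by Elovl3 (8.93) and Fads2 (8.16). Of the 15 regulators 10 were higher in liver, with Angptl8 at 8.49 and Insig2 at 3.14 (log2). Esterification was divided, with 2 genes higher in liver, such as Agpat2 (5.13), and 3 in muscle, such as Pnpla3 (-5.88).

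Deletion of Slc16a13 was then compared with WT in liver. The log2 difference was below 0 for all 10 lipogenic genes, as it was for 51.1% of the 13005 genes tested. None passed an adjusted p of 0.05, as did 0.0231% of all genes (3 genes, with Slc16a13 among them). At an unadjusted p under 0.05, 6 of the 10 were lower and none higher, against 3.1% of all genes lower and 9.78% higher. Scaled by library size alone, 514 genes were higher and 894 lower at that p, against 1272 and 403 with TMM scaling. The median log2 difference over the 10 genes was -0.33, and over all genes it was -0.01. Without the 4 KO livers with a slope below 0, none passed after adjustment (0.0227% of 13210 genes did), and the difference was below 0 for 9 of the 10, as for 49.7% of all genes. At an unadjusted p under 0.05, 4 of the 10 were lower, against 1.6% of all genes, and the median over the 10 was -0.21. At that p, 3 of the 10 were lower without the 5 KO livers with a slope below every WT liver. That held for 226 of 13290 genes. With gene length removed from each library 5 of the 10 were lower at that p, against 2.05% of all genes.

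**Figure D2:**
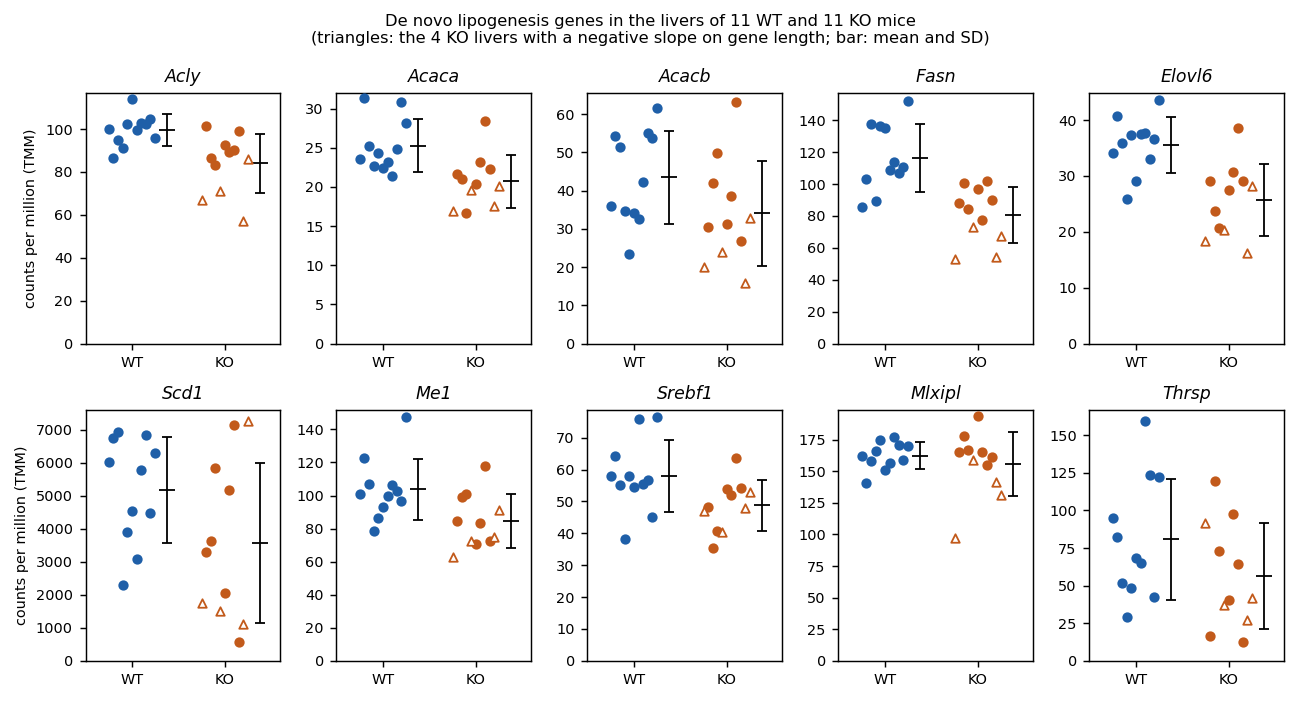
CPM of each lipogenic gene in the livers of 11 WT and 11 KO mice, with a point per mouse, open triangles for the 4 KO livers with a negative slope on gene length, and a bar for the mean and SD. For Fasn all 11 KO livers lay below the WT median of 111 CPM, whereas Scd1 and Thrsp covered a wide range in both genotypes.

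Fasn, the synthase itself, had the fifth smallest p of all genes tested in liver. It ran from 85.8 to 152 CPM in WT livers, with a median of 111, and from 52.8 to 102 CPM in KO livers, with a median of 84.1. All 11 KO livers were below the WT median and 6 were below the lowest WT liver. Those 6 included all 4 set-aside livers, at 52.8 to 73.0 CPM, and 2 of the other 7, which ran from 77.3 to 102 CPM. The log2 difference was -0.53 ± 0.12 (SE; 95% interval -0.78 to -0.28; p = 2.1e-04, adjusted p = 0.38 by edgeR). Without the 4 libraries it was -0.35 ± 0.10 (edgeR p = 0.0029, adjusted p = 0.999), and with gene length removed -0.42 ± 0.09 (p = 1.1e-04, adjusted p = 0.48). DESeq2 gave -0.52 with an adjusted p of 0.044, the 1 call for a lipogenic gene by any tool run in this comparison. The length that the authors' RPKM implies for Fasn, which differs between libraries, was 3284 to 3964 bases in WT livers, 3715 to 4276 in the other 7 KO livers and 1995 to 3097 in the 4 set-aside livers. In RPKM, Fasn ran from 22.6 to 43.5 in WT livers and from 20.0 to 28.1 in the other 7 KO livers. The 4 set-aside livers ran from 21.8 to 28.2 RPKM. The length removal used 1 median implied length per gene over all libraries, 3791 bases for Fasn, and did not follow these differences. The part of the differing implied length in the lower CPM was not tested.

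Upstream of Fasn, Acly ran from 86.4 to 114 CPM in WT livers, with a median of 100.1, and from 57.1 to 101 in KO livers, with a median of 86.4. The 3 lowest KO livers were set-aside ones, and 1 of the other 7 was below the lowest WT liver. The difference of -0.24 ± 0.08 (log2; edgeR p = 0.0062, adjusted p = 0.38) was -0.12 ± 0.05 without the 4 libraries (p = 0.036). Acaca lay at 21.5 to 31.3 CPM in WT livers, with a median of 24.4, and at 16.6 to 28.4 CPM in KO livers, with a median of 20.3. Of the KO livers 7 were below every WT liver, 3 of them among the 7 with a positive slope. The difference was -0.29 ± 0.09 (log2; edgeR p = 0.0031, adjusted p = 0.38) and -0.21 ± 0.09 without the 4 libraries (p = 0.038). With gene length removed the difference of Acaca was 0.018 ± 0.12 (p = 0.89). The length implied for the Acaca transcript was 8129 bases at the median of WT livers, the longest among the 10 genes. Acacb, at 23.4 to 61.5 CPM in WT and 16 to 63.3 CPM in KO livers, overlapped over nearly the whole range (-0.35 ± 0.20, p = 0.091, and -0.11 ± 0.19 without the 4 libraries).

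Elovl6, which lengthens palmitate to stearate, ran from 25.9 to 43.5 CPM in WT livers, with a median of 36.6, and from 16.2 to 38.6 CPM in KO livers, with a median of 27.5. Of the KO livers 10 were below the WT median and 5 below the lowest WT value, 2 of them with a positive slope. Its difference was -0.47 ± 0.12 (log2; edgeR p = 8.1e-04, adjusted p = 0.38), -0.32 ± 0.11 without the 4 libraries (p = 0.0075) and -0.27 ± 0.09 with gene length removed (p = 0.0070). The length implied for Elovl6 was the same in every liver to within 2 bases, at a median of 5951.

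Scd1 showed the widest range among the enzymes. It ran from 2292 to 6915 CPM in WT livers, with a median of 5766, and from 564 to 7262 CPM in KO livers, with a median of 3296. The lowest and second highest KO livers, of animals 598 and 597, both had a positive slope, and the highest, of animal 611, was a set-aside one. The log2 difference of -0.53 had a 95% interval from -1.24 to 0.17 (edgeR p = 0.13), so neither a difference of that size nor none was separated from the spread. Without the 4 libraries it was -0.39 ± 0.34 (p = 0.26). The deposited tables are named as holding unique reads, and how reads that Scd1 shares with its close paralogs were treated is not stated beyond that in the sources used here. Me1, a source of NADPH, ran from 78.7 to 148 CPM in WT livers, with a median of 101, and from 62.6 to 118 CPM in KO livers, with a median of 83.6. It was lower by -0.30 ± 0.11 (log2; edgeR p = 0.011, adjusted p = 0.38) with 5 KO livers below every WT liver, and by -0.21 ± 0.11 without the 4 libraries (p = 0.085).

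Of the regulators, Srebf1 ran from 38.3 to 76.7 CPM in WT livers, with a median of 56.7, and from 35.4 to 63.8 CPM in KO livers, with a median of 48.1. Only 1 KO liver was below the WT range, and the difference was -0.25 ± 0.11 (log2; edgeR p = 0.030, adjusted p = 0.38) and -0.22 ± 0.13 without the 4 libraries (p = 0.096). The counts do not separate the SREBP-1a and SREBP-1c transcripts. Mlxipl was the steadiest of the 10 genes in WT livers, at 141 to 177 CPM, with a median of 162, and at 97.6 to 194 CPM in KO livers, with a median of 161. Its difference was -0.06 ± 0.08 (log2; edgeR p = 0.47) and 0.060 ± 0.05 without the 4 libraries (p = 0.24), where the direction turned. Thrsp ran from 28.8 to 160 CPM in WT and from 12.4 to 120 CPM in KO livers, with medians of 68.1 and 41.7, and the groups overlapped widely (-0.52 ± 0.35, p = 0.15, and -0.42 ± 0.40 without the 4 libraries, p = 0.31).

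**Figure D3:**
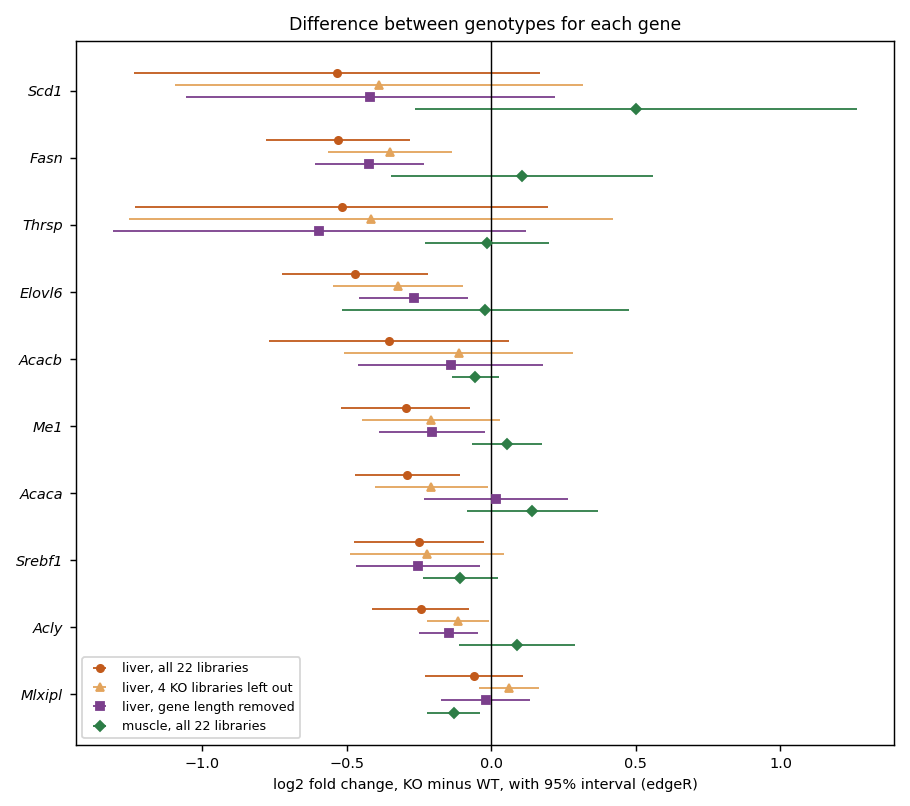
Log2 fold change of KO against WT for each lipogenic gene with its 95% interval from edgeR, for all 22 livers, for livers without the 4 libraries with a negative slope, for livers with gene length removed, and for all 22 muscle libraries, where KO is the label. The intervals of Fasn, Elovl6 and Acly stayed below 0 in the 3 liver fits, and that of Acaca crossed 0 with gene length removed.

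Other cell types of the liver gave these values beside the comparison. The summed macrophage markers were at 176 to 219 CPM in WT livers, 156 to 249 in the other 7 KO livers and 260 to 491 in the 4 set-aside livers. The 3 markers of blood were at 197 to 290, 184 to 252 and 340 to 486 CPM in the same groups, and the 3 endothelial markers at 94.6 to 121, 96.0 to 127 and 66.1 to 101 CPM. The 6 hepatocyte markers were at 80203 to 113531, 86170 to 108804 and 107660 to 133631 CPM. Their part in the lower lipogenic genes of the set-aside livers was not tested. Of the 6 adipocyte markers, Lep had no read in any liver and Adipoq, Plin1 and Retn were at 0.282 CPM or less. Cfd was at 1.34 to 8.73 CPM in WT and 0.747 to 15.4 CPM in KO livers (0.44 ± 0.38, edgeR p = 0.26). Cidec, which is also expressed in fatty liver, was at 9.45 to 108 CPM in WT and 6.44 to 60.1 CPM in KO livers. Its difference was -0.86 ± 0.41 (log2; edgeR p = 0.049, adjusted p = 0.38). Those 6 summed to 10.9 to 112 CPM in WT livers and 8.49 to 69.2 CPM in KO livers.

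Of the 40 further genes of the pathway, 37 were tested in liver and none passed after adjustment, while at an unadjusted p under 0.05, 2 were higher and 3 lower, against 9.78% and 3.1% of all genes. The median log2 difference of the 37 was -0.01, and 19 of them had a difference below 0, against 51.1% of all genes. Without the 4 libraries the median was -0.05, and 25 of the 37 were below 0, against 49.7% of all genes. None passed after adjustment there. At an unadjusted p under 0.05, 2 were lower and 0 higher, against 212 and 179 of 13210 genes. The smallest p belonged to Fads1, the delta-5 desaturase, with 389 ± 71.1 CPM in WT and 304 ± 56.9 CPM in KO livers (-0.35 ± 0.11, p = 0.0044, adjusted p = 0.38). Pklr followed, with 231 ± 85.2 CPM in WT and 151 ± 51.8 CPM in KO livers (-0.61 ± 0.20, p = 0.0055, adjusted p = 0.38). Mdh1, the cytosolic malate dehydrogenase, was at 571 ± 29.6 and 645 ± 108 CPM (0.18 ± 0.07, p = 0.027), and at 0.02 ± 0.04 without the 4 libraries (p = 0.65), where Fads1 was at -0.24 ± 0.11 (p = 0.039) and Pklr at -0.43 ± 0.22 (p = 0.065). By role, 7 of 9 elongases and desaturases, 4 of 9 suppliers of substrate, 7 of 15 regulators and 1 of 4 esterification genes had a lower mean in KO livers. In the same order these counts were 7 of 9, 7 of 9, 9 of 15 and 2 of 4 without the 4 libraries.

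In muscle no lipogenic gene passed after adjustment between libraries labelled KO and WT, where 0.00754% of 13266 genes did. At an unadjusted p under 0.05, 1 of the 10 was lower, against 4.88% of all genes lower and 3.76% higher. The difference was below 0 for 5 of the 10 and for 46.3% of all genes. With library size alone 631 genes were higher and 497 lower at that p, against 499 and 647 with TMM. That gene was Mlxipl, at 60.1 to 75.7 CPM in WT, with a median of 67.1, and at 55.4 to 72.8 CPM in the libraries labelled KO, with a median of 60.7. The groups overlapped over most of their range, and the difference was -0.13 ± 0.04 (log2; edgeR p = 0.0077, adjusted p = 0.51). Acacb was at 455 to 601 CPM in WT and 483 to 573 CPM in libraries labelled KO, with a difference of -0.05 ± 0.04 (p = 0.18). Me1 was at 192 to 280 CPM in WT and 194 to 275 CPM in libraries labelled KO (0.06 ± 0.06, p = 0.36). Srebf1 (-0.11 ± 0.06), Acly (0.09 ± 0.10), Thrsp (-0.01 ± 0.10) and Elovl6 (-0.02 ± 0.24) did not pass either, the signs of Thrsp and Elovl6 turned with scaling by library size alone, Acly turned to -0.0436 without animals 561 and 611, and Srebf1 to 0.0361 on log2 RPKM with a pseudocount of 0.1. Elovl6 had 8 to 43 reads per library and an interval from -0.52 to 0.48. Of the pathway list 36 genes were tested in muscle and none passed. The smallest p-values were those of Mid1ip1, a partner of the Thrsp product (-0.26 ± 0.08, p = 0.0048), Nr1h2 (-0.18 ± 0.07, p = 0.011) and Khk (-0.13 ± 0.05, p = 0.013), each with an adjusted p of 0.49 or more by edgeR.

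Scd1, Fasn and Acaca in muscle were set apart by a pair of libraries. Scd1 ran from 140 to 796 CPM in WT muscles, with a median of 346, and from 238 to 2331 CPM in libraries labelled KO, with a median of 374. Fasn ran from 21.4 to 47.8 CPM in WT, with a median of 31, and from 18.7 to 75.4 CPM in libraries labelled KO, with a median of 26. Acaca was at 8.17 to 11.3 and 7.91 to 17.8 CPM. In all 3 genes, and by less in Acly and Elovl6, the libraries of animals 561 and 611 were the highest of all 22, with 2331 and 1055 CPM for Scd1 and 75.4 and 65.6 CPM for Fasn. Acly was at 22.6 and 24.8 CPM in them, above a WT maximum of 19.7, and Elovl6 at 1.08 and 1.12 CPM, above 1.06. The log2 difference was 0.50 ± 0.37 for Scd1 (edgeR p = 0.19), 0.10 ± 0.22 for Fasn (p = 0.64) and 0.14 ± 0.11 for Acaca (p = 0.20). Without those 2 libraries, left out after their values were seen, Scd1 was at -0.29 ± 0.22 (p = 0.20), Fasn at -0.29 ± 0.14 (p = 0.045, adjusted p = 0.48) and Acaca at -0.03 ± 0.06 (p = 0.67), so each direction turned. Fasn and Mlxipl were then the 2 members lower at an unadjusted p under 0.05, against 5.31% of 13305 genes. No gene passed after adjustment in that fit, and 1363 (10.2%) had an unadjusted p under 0.05.

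The same 2 libraries were the highest in adipocyte markers. Adipoq, Lep, Cfd, Plin1, Retn and Cidec summed to 97.2 to 402 CPM in WT muscles and 135 to 289 CPM in 9 libraries labelled KO, but to 916 CPM in animal 561 and 716 CPM in animal 611. All 6 markers were read in every muscle. Across WT muscles the mean log2 CPM of the 6 markers rose with Scd1 (Pearson r = 0.92, permutation p = 6.0e-05, adjusted p = 6.0e-04; Spearman rho = 0.92, p = 2.2e-04, adjusted p = 0.0022; r = 0.86 without the 2 mice farthest from the median), with Fasn (r = 0.80, p = 0.0028, adjusted p = 0.014; rho = 0.86, p = 0.0014, adjusted p = 0.0068; r = 0.75 without 2) and with Acly (r = 0.76, p = 0.0059, adjusted p = 0.020; rho = 0.74, p = 0.013, adjusted p = 0.042; r = 0.63 without 2). The p-values were adjusted over the 10 members. An r above 0.6 was found for these 3 of 10 and for 10.5% of all genes. Below -0.6 lay 1 of 10, Acacb (r = -0.61, permutation p = 0.031, adjusted p = 0.077), and 7.23% of all genes. Since animals 561 and 611 stand apart, the libraries labelled KO were taken without them. Over those 9, an r above 0.6 was found for 3 of 10 members and 5.72% of all genes, and Fasn passed (r = 0.95, exact permutation p = 6.1e-05, adjusted p = 6.1e-04; rho = 0.92, exact p = 0.0013, adjusted p = 0.013; r = 0.95 without 2 more). Scd1 had r = 0.75 (exact permutation p = 0.021, adjusted p = 0.053) and rho = 0.72 (adjusted p = 0.12), and Acaca had the same r (p = 0.016, adjusted p = 0.053) with rho = 0.58 (adjusted p = 0.20), and neither passed. Without 2 more libraries their r was 0.53 and 0.30. Me1 ran the other way, with r = -0.81 (exact permutation p = 0.0063, adjusted p = 0.031) and rho = -0.75 (exact p = 0.025, adjusted p = 0.12), and r was -0.56 without 2 more libraries. In WT muscles r was -0.32 for Me1 (permutation p = 0.34). Elovl6 had r = -0.67 over the 9 libraries (exact permutation p = 0.051, adjusted p = 0.10) and 0.58 in WT muscles (permutation p = 0.064). Over the 9, r was below -0.6 for 2 of 10 members and 5.85% of all genes. On log2 RPKM with a pseudocount of 0.1, Acly no longer passed in WT muscles (r = 0.39, permutation p = 0.23, adjusted p = 0.33). With the marker level as a covariate the difference between labels was -0.0017 ± 0.11 for Scd1 and -0.16 ± 0.08 for Fasn (log2; edgeR p = 0.99 and 0.061). Whether the markers account for the higher levels was not tested beyond these values.

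**Figure D4:**
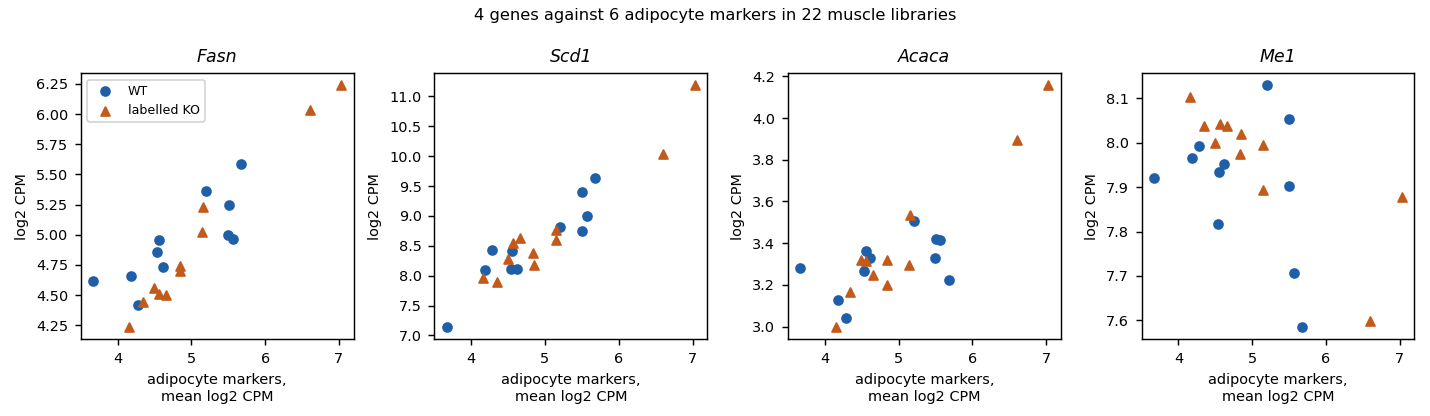
Log2 CPM of Fasn, Scd1, Acaca and Me1 against the mean log2 CPM of 6 adipocyte markers in the 22 muscle libraries, with circles for WT and triangles for libraries labelled KO. The 2 libraries farthest to the right are those of animals 561 and 611, which were the highest in Fasn, Scd1 and Acaca, and among genes not plotted in Acly and Elovl6.

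Whether the genotype difference itself differed between tissues was tested as an interaction over 14739 genes. No lipogenic gene passed after adjustment, where 0.00678% of genes did. At an unadjusted p under 0.05, 4 of 10 had a more negative difference in liver than in muscle, against 6.14% of all genes. Library size alone gave 573 genes higher and 1764 lower at that p, against 1479 and 905 with TMM. They were Acaca (-0.42 ± 0.14, p = 0.0049), Me1 (-0.34 ± 0.13, p = 0.0089), Acly (-0.33 ± 0.13, p = 0.015) and Fasn (-0.62 ± 0.26, p = 0.020), each with an adjusted p of 0.28 by edgeR. Without the 4 livers, Acaca (-0.35, p = 0.027) and Me1 (-0.27, p = 0.044) stayed under 0.05, and Mlxipl came in with the opposite sign (0.19, p = 0.0068, adjusted p = 0.87), against 3.17% of 14996 genes lower and 1.63% higher. With gene length removed 2 of 10 were lower at an unadjusted p under 0.05, against 491 of 14739 genes. With animal as a block, which the main fit left out, 5 of 10 were lower, against 1211 genes. In this comparison both the slope of 4 KO livers and the Slc16a13 level of the muscles labelled KO go with the contrast. So do the muscle libraries of animals 561 and 611, the highest in Acaca, Acly and Fasn. Without them the muscle differences of these genes were below 0. The part of each of these in the interaction values was not tested. Of the pathway genes Fads1 (-0.61 ± 0.16, p = 5.7e-04, adjusted p = 0.21), Usf1 (0.35 ± 0.13, p = 0.0083) and Usf2 (0.24 ± 0.10, p = 0.014) had the smallest p-values, and none passed.

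The members also differed in how steady they were from mouse to mouse. In WT livers the SD of log2 CPM was 0.75 for Thrsp and 0.53 for Scd1, larger than in 97.4% and 93.1% of the genes tested. Mlxipl and Acly varied least, with an SD of 0.10 and 0.11, larger than in 17% and 21.8% of genes, against a median of 0.17 over all genes. Among the 7 KO livers with a positive slope the SD of Thrsp was 1.26 and that of Scd1 1.24, each larger than in 99.4% of genes. In WT muscles Scd1 was the most variable of the 10, with an SD of 0.70, whereas that of Thrsp was 0.22 and that of Acacb 0.10.

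To ask whether the genes moved together across mice, all 45 pairs were correlated within each group, and a pair was called when r by Pearson and rho by Spearman each passed an adjusted permutation p of 0.05. In WT livers none was called, and 32 of 45 pairs had a positive r with a median of 0.28, against a median of -0.0005 over all pairs of tested genes. An r above 0.6 was found in 20.0% of member pairs and 5.41% of all gene pairs. The median r was 0.45 with scaling by library size alone and 0.53 on log2 RPKM with either pseudocount. Me1 had the highest median r with the other members, 0.66, and Acly and Mlxipl the lowest, -0.06 and -0.09. The strongest pair was Elovl6 with Me1 (r = 0.78, permutation p = 0.0055, adjusted p = 0.13; rho = 0.65, p = 0.033, adjusted p = 0.23; r = 0.72 without 2 mice). The 11 KO livers gave 3 called pairs, Acly with Elovl6, Acaca with Elovl6 and Acacb with Scd1, but fell into 2 sets by slope. Over these 11, r was above 0.6 in 31.1% of member pairs and 17.3% of all gene pairs. Over the 7 with a positive slope none of the 45 passed, and these shares were 17.8% and 10.2%. There Acaca with Elovl6 had r = 0.95 (exact permutation p = 0.0052, adjusted p = 0.12) and rho = 0.93 (adjusted p = 0.15). Acacb with Scd1 had r = 0.82 (exact permutation p = 0.020, adjusted p = 0.18) and rho = 0.93 (adjusted p = 0.15), and Acly with Elovl6 had r = 0.46 (exact p = 0.30, adjusted p = 0.76) and rho = 0.46 (adjusted p = 0.76). With gene length removed none of the 45 pairs passed over all 11 either. Muscle had 0 called pairs in WT. In the libraries labelled KO 4 pairs passed, Acaca with Fasn, Acaca with Scd1, Fasn with Scd1 and, with a negative r, Fasn with Me1, and without animals 561 and 611 none did. There r was above 0.6 in 15.6% of member pairs both with and without the 2 animals, against 7.03% and 5.85% of all gene pairs. Fasn with Me1 then had r = -0.91 (exact permutation p = 7.1e-04, adjusted p = 0.032) and rho = -0.90 (exact p = 0.0020, adjusted p = 0.091).

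**Figure D5:**
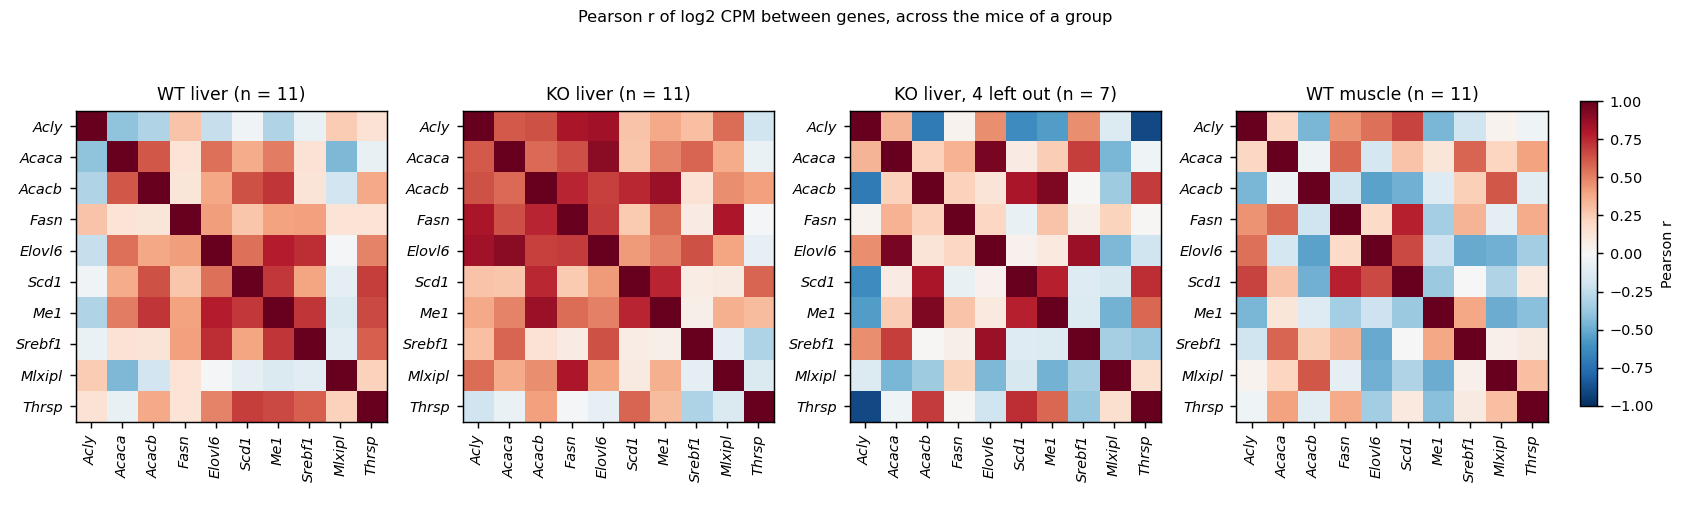
Pearson r of log2 CPM for each pair of lipogenic genes, coloured from -1 (blue) to 1 (red), in 4 matrices: WT livers, all KO livers, the KO livers without the 4 with a negative slope, and WT muscles. The matrix of all 11 KO livers is red in most cells, with a median r of 0.43, and that of the 7 KO livers with a positive slope is mixed, with a median r of 0.08.

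The genes with a pattern most like that of the members were sought over the 11 WT livers as the correlation of each gene's log2 CPM with the mean of the standardised members. Among 11822 other genes the highest were Elmo2 (r = 0.95), Manba (r = 0.93), Fez2 (r = 0.92), Hk2 (r = 0.91) and Tnfrsf21 (r = 0.91). Over the 7 KO livers with a positive slope the same r was 0.37 for Elmo2, 0.74 for Manba, 0.63 for Fez2, 0.09 for Hk2 and 0.70 for Tnfrsf21. Of the 37 pathway genes ranked, 6 had an r above 0.6 in WT livers, as did 8.65% of all genes ranked. They were Pklr (0.84), the pentose phosphate pathway genes Pgd (0.75) and G6pdx (0.63), Hsd17b12, a reductase of fatty acid elongation (0.72), the elongase Elovl1 (0.62) and Mid1ip1 (0.62). Over the 7 KO livers r was 0.56 for Pklr, 0.83 for Pgd, 0.71 for Hsd17b12 and 0.67 for Elovl1, but 0.21 for G6pdx and -0.22 for Mid1ip1. All these values come from the same few libraries, and they are descriptions without a test.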

How the data were processed

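RNA from both tissues of 22 mice gave 44 libraries, and group and animal number came from the labels. Libraries were stranded and poly(A)-selected. The authors deposited raw read counts per gene, not normalized, and RPKM values that they had calculated per transcript length and library size; the aligner, counting program, genome build and annotation are not given in the sources used here. The length implied by both tables differs between libraries, so RPKM is not a count over a fixed length. Depth was 20150712 to 35218243 counts per library, and members had 8 reads or more in each library.

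The 10 members, the 40 pathway genes and the markers were chosen with earlier results of these data known, and the study itself addresses lipogenesis, so the list is no independent evidence. With deuterated water the study found no difference in hepatic lipogenesis between genotypes on HFD, which measures synthesis and not RNA. By the study's methods, that labelling ran over several nights with sucrose in the drinking water, and the fast before killing was shorter than overnight. Symbols were found for 36340 of 38202 genes.

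The main test was edgeR's quasi-likelihood test (version 4.0.16 in R 4.3.3; TMM, filterByExpr, Benjamini-Hochberg over all genes tested, threshold 0.05) in 4 fits: liver, muscle, their interaction and WT liver against WT muscle. P-values of the liver and muscle fits measure the spread between mice. The main fits between tissues and of the interaction took libraries as independent and left out the pairing within an animal. Log2 CPM used a prior count of 2. For gene length, a loess (span 0.3) of log2 CPM on log2 median implied length was removed from each library. Correlations were tested with 100000 permutations, two-sided, or exactly below 10 mice. Alternatives were DESeq2 1.42.0, limma 3.58.1 (voom, or log2 RPKM with a pseudocount of 0.1 or 1), other scaling, no filter, animal as a block, adipocyte markers as a covariate and each library left out. The 2 tissues of a number are the same animal by the labels, which is the source of the pairing. Members were all named, pathway genes by the 3 smallest p where none passed or, between tissues, the 2 largest differences of each role, and likeness by the 5 highest r; the other pathway genes given with an r were chosen after their values were seen. A result that the rule names is not reported here. The fits and the correlations were tested on simulated data. No 2 libraries were identical.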

Additional observations from a re-analysis of the deposited data

How the results depend on the processing

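In liver the number of lipogenic genes past an adjusted p of 0.05 was 0 in each fit but that by DESeq2, which called 1 (Fasn). Of the single values per gene, 333 kept direction and side of the threshold under the alternatives other than leaving out 1 library, and 422 of 440 kept them when 1 library was left out. The values that reversed were these, and none was past the threshold after it reversed. In liver, Acaca was at 0.0175 with gene length removed, and Mlxipl at 0.0598 without the 4 livers with a slope below 0, at 0.0249 without the 5 below every WT liver, and between -0.10 and 0.00447 with 1 library left out (0.00447 without KO animal 532). In muscle, Fasn was at -0.00871 by limma-voom, -0.16 with adipocyte markers as a covariate, -0.29 without the 2 libraries highest in them and -0.0808 to 0.18 with 1 library left out (-0.0808 without animal 561, -0.0403 without 611). Scd1 was at -0.0017 with the covariate, -0.29 without the 2 libraries and -0.0154 to 0.64 with 1 left out (-0.0154 without animal 561), and Acly and Acaca at -0.0436 and -0.0278 without the 2 libraries. Elovl6 and Thrsp in muscle were at 0.00301 and 0.00490 with scaling by library size alone and ranged from -0.14 to 0.0671 and from -0.0647 to 0.0306 with 1 library left out, above 0 for Elovl6 without WT animals 516, 612, 623 or 624 or labelled KO animals 568, 570, 588 or 597 and for Thrsp without WT animals 567 or 616 or labelled KO animals 568, 570, 597 or 598. Srebf1 was at 0.0361 and 0.0350 by limma on log2 RPKM with a pseudocount of 0.1 and 1. The interaction of Mlxipl was at -0.00601 with library size alone, and Srebf1 between tissues at -0.17 with gene length removed. Srebf1 had been past the threshold between tissues and was not in that fit (adjusted p = 0.092 by edgeR), where 9 of 10 members were called. The cause of these moves was not tested.

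The number of called pairs in KO livers was 7 with library size alone, 6 with log2 RPKM at either pseudocount, 0 with gene length removed and 0 without the 4 livers. In muscle libraries labelled KO it was 1 with library size alone, 1 with log2 RPKM at either pseudocount and 0 without the 2 libraries highest in adipocyte markers. The number of members whose relation to those markers passed there was 4 over all 11 libraries, with a negative r for Me1. It was 2 with log2 RPKM and a pseudocount of 0.1, and 1 without the 2 libraries. Over all 11, r was above 0.6 for 4 of 10 members and 18.2% of all genes. It was below -0.6 for 1 of 10 members and 13.5% of all genes. With animal as a replicate block, the interaction called 0 lipogenic genes and the tissue comparison 10, so the block changed no call after adjustment. Leaving out the 2 muscle libraries was chosen after seeing the data. Over all genes, DESeq2 called 6 genes in liver against 3 and 43 in the interaction against 1. Library size alone called 3 in the interaction, where it moved the median of all genes to -0.11. Elovl6 had only 8 to 43 reads per muscle library.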
